A study of Homo sapiens with 14 samples.

Results

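The 10 genes described here carry glucose into the cell and through the regulated and lactate-producing steps of glycolysis: the transporters SLC2A1 and SLC2A3, the hexokinases HK1 and HK2, the phosphofructokinase PFKP, the regulators PFKFB2 and PFKFB3, the pyruvate kinase PKM and the lactate dehydrogenases LDHA and LDHB. They were chosen by name and make up 10 of the 19775 genes measured. Each gene was read from the brightest of the probe sets (groups of short array probes) annotated with that gene alone. AS605240, an inhibitor of the lipid kinase PI3K, was given for 6 h at the IC50 of each line to 7 established human T-cell acute lymphoblastic leukemia (T-ALL) lines, Jurkat, Molt-4, CCRF-CEM, TALL-1, ALL-SIL, P12-ICHIKAWA and HPB-ALL, and vehicle was given to the same 7 lines for 6 h. All cells were grown in the same serum-containing medium and put into fresh medium before treatment, and each line gave 1 HG-U133 Plus 2.0 array per treatment, 14 arrays in all. The molar dose therefore differed between lines, and no line had a second array of the same treatment.

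A dividing T cell takes up glucose through facilitative transporters and traps it as glucose 6-phosphate by the action of hexokinase. Phosphofructokinase commits the sugar to glycolysis, pyruvate kinase yields pyruvate, and lactate dehydrogenase turns pyruvate into lactate and regenerates the oxidized NAD that glycolysis needs. PI3K signaling is known to raise glucose uptake and hexokinase activity in lymphocytes, and Myc, which binds the E-box CACGTG together with its partner MAX, is known to activate several genes of the pathway, HK2 and LDHA among them. Most of the steps are served by paralogs, of which one member is often the widely expressed form and the other the form induced in growing cells.

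Upstream sequences of HK2, LDHA, PFKFB3 and LDHB are shown so that the E-box letters can be compared between genes of one step, LDHA and LDHB above all. Promoter windows, taken from RefSeq on GRCh38.p14 and reaching from 250 bases before to 50 bases after a transcription start, were at hand for 8 of the 10 genes, 20 windows in all. SLC2A3 and PFKFB2 had none. The motif CACGTG, which reads the same on both strands, occurred in 3 of these windows, 1 of 2 each for HK2, LDHA and PFKFB3. No window of SLC2A1, PFKP, PKM, LDHB or HK1 (7 windows) held it. SLC2A1, PFKP and PKM were among the genes that fell with AS605240, and PFKFB3 was not called. The relation of the motif to the changes was not tested. Among all 35116 windows 7.26% held the motif at least once and 0.664% held it 2 or more times. The HK2 stretch is chr2:74834965-74835114 on the plus strand, and its E-boxes start 194 and 149 bases before the transcription start. The LDHA stretch is chr11:18394358-18394507 on the plus strand, with E-boxes 185 and 87 bases before the start. The PFKFB3 stretch is chr10:6202802-6202851 on the plus strand, with 1 E-box 108 bases before the start. The LDHB stretch, chr12:21657898-21658047 on the minus strand, covers the same distance from the start as those of HK2 and LDHA and holds none. Capitals mark the E-box.
HK2: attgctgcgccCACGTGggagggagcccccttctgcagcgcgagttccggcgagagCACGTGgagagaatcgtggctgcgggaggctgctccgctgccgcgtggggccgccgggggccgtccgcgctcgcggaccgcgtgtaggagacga
LDHA: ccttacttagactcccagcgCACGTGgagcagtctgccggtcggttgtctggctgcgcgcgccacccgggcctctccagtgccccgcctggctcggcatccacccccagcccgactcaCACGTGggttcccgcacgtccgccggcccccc
PFKFB3: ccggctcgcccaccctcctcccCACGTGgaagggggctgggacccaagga
LDHB: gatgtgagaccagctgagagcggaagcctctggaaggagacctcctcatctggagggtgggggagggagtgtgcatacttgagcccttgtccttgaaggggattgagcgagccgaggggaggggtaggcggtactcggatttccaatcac
The shorter hypoxia response element cores were more common. ACGTG, which lies inside CACGTG, was found on either strand of 21.4% of all windows, and GCGTG was found in 36.5%. A match is a run of letters and was not read as a binding site.

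A pair of features of the arrays touches every result. The vehicle arrays of P12-ICHIKAWA and TALL-1 correlated at r = 0.994 over the 19775 genes, where the remaining 20 pairs lay between 0.908 and 0.953, and their AS605240 arrays also at 0.994, against at most 0.948. The pair is given as measured under both labels, and those of the 10 genes and of the pathway genes below that lose their call when the pair is averaged into 1 line are named. The polyadenylated spike-in RNAs, read by 24 probe sets, were higher on the AS605240 array in 7 of 7 lines (mean log2 change 0.22 ± 0.17, SD), while the array medians moved by 0.019. The median signal per array lay between 19.9 and 25.0. Of the 10 T-cell markers, 9 had a signal over 50 on all 14 arrays and 1 over 50 on at least 7. The summed signal of 4 B-cell markers was at most 431 and that of 5 myeloid markers at most 278, against at least 7222 for the T-cell markers. That of 2 erythroid markers was at most 205 and that of 6 epithelial and fibroblast markers at most 823. The sums are over different numbers of genes. Of these 4 lists CD79A, LYZ, HBB, KRT8 and COL1A1 had a signal over 50 on at least 7 arrays. Of the same 4 lists 1 gene was called, the B-cell marker CD79B, at a change of −0.58. It was dim, with a mean signal of 43.9 and over 50 on 5 of 14 arrays. Of the T-cell list CD3G, a subunit of the T-cell receptor complex, was called at −0.26 (adjusted p = 0.00682, limma). The part of these marker changes in the results was not tested.

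With AS605240, 6 of the 10 genes fell at an adjusted p under 0.05 and none rose. Among all 19775 genes 7.03% fell and 11.8% rose by the same rule (limma, lines as blocks, Benjamini-Hochberg over all genes). Bright genes were called more often. Of the 9186 genes with a signal over 50 on at least 7 arrays, which include all 10 genes, 1603 fell and 2275 rose when tested alone. Of the 10 genes, those that fell were HK2, SLC2A3, SLC2A1, PFKP, LDHA and PKM. The median log2 change of the 10 genes was −0.24, against 0.013 over all genes, and all 10 mean changes lay below 0, as did those of 9004 of the 19775 genes. Only HK2 also passed a fold of 1.5, which 0.506% of all genes did in the same direction. With the mean of all its probe sets HK2 fell by 0.46 (adjusted p = 0.000711, limma), which is less than 1.5-fold. In P12-ICHIKAWA and TALL-1 all 10 genes were below 0, with medians of −0.52 and −0.42. In the other lines 7 to 9 genes were below 0, and the medians lay between −0.11 in Molt-4 and −0.25 in Jurkat. When the arrays were instead centred on the spike-ins, the median change of all genes became −0.21 and all 10 genes fell. The part of the spike-in difference in these results was not tested.

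**Figure D1:**
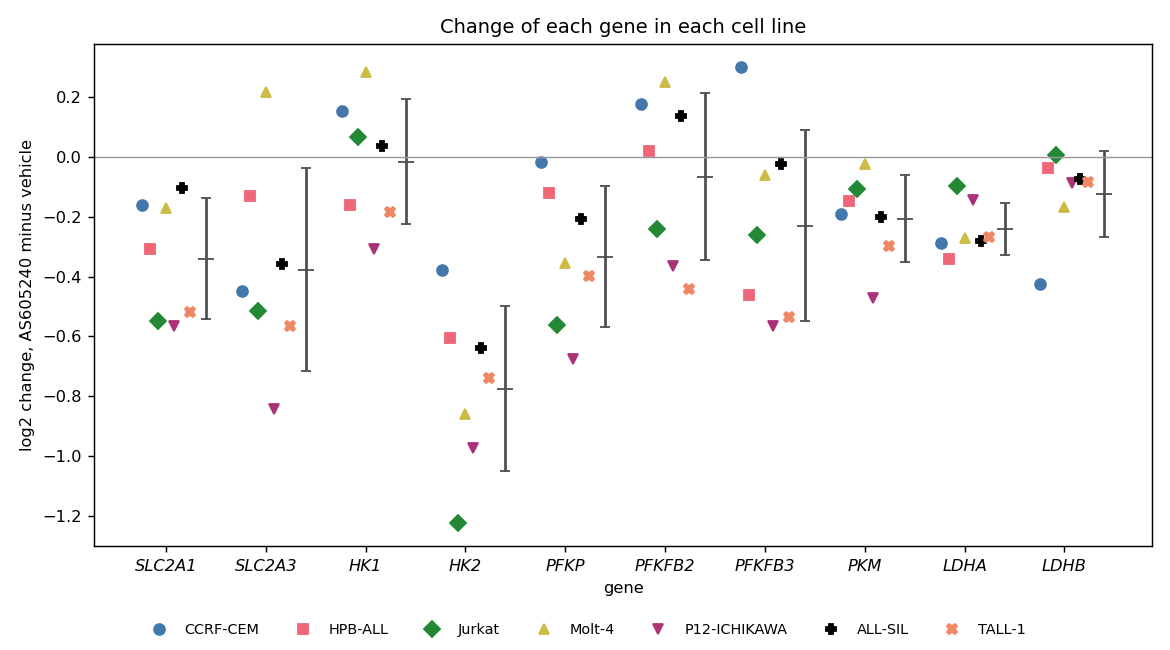
The log2 change, AS605240 minus vehicle, of each of the 10 genes (x axis) in each of the 7 cell lines (symbols), with the mean and SD over lines as a bar at the right of each gene. HK2 has the lowest mean, with lines between −1.23 and −0.38 that overlap those of other genes, and SLC2A3, HK1, PFKFB2, PFKFB3 and LDHB have lines on both sides of 0.

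Both glucose transporters fell. SLC2A1 (GLUT1), the widespread basal glucose transporter, had signals of 158.7, 273 and 324 with AS605240 (lowest, median and highest of 7 lines), against 200.3, 335 and 430.5 with vehicle. The ranges overlapped because the lines differ, yet within each of the 7 lines the AS605240 array was the lower, as it was for 6.11% of all genes. Its log2 change was −0.34 (SE 0.072, adjusted p = 0.00450, limma), a 1.27-fold lower level. P12-ICHIKAWA, Jurkat and TALL-1 had changes between −0.57 and −0.52, the other lines between −0.31 and −0.10.

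SLC2A3 (GLUT3), a high-affinity transporter of neurons and lymphocytes, had signals of 41.4, 69.2 and 188 with AS605240, against 46.8, 100.1 and 257 with vehicle. It was lower in 6 of 7 lines, the exception being Molt-4 with 67.3 in AS605240-treated and 55.6 in vehicle-treated cells. Its log2 change was −0.38 (SE 0.0999, adjusted p = 0.0167, limma). The call was lost without Jurkat (adjusted p = 0.0507) and without TALL-1 (adjusted p = 0.0514), among values of 5.91e-07 to 0.9999 over all alternatives. SLC2A14 is a near-identical copy of SLC2A3, so which of these 2 genes gave the signal is uncertain, and 2 probe sets annotated with both were left out.

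Of the hexokinases only HK2 passed the test. HK2, the inducible hexokinase, had signals of 32.8, 172 and 274 with AS605240, against 59.9, 326 and 378 with vehicle. The low end of both ranges was ALL-SIL, and over the 7 lines the ranges overlapped. The other 6 lines, looked at after ALL-SIL was seen to be low, had 127 to 274 with AS605240 and 294 to 378 with vehicle. How many of all genes would be parted in this way without a line was not computed. The log2 change was −0.77 (SE 0.086, adjusted p = 5.82e-05, limma), a 1.71-fold lower level found in 7 of 7 lines, and 32 of the 19775 genes had a larger decrease. Jurkat stood at one end, with 127 in AS605240-treated and 318 in vehicle-treated cells, and CCRF-CEM at the other, with 274 and 361 in the same order.

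HK1, the hexokinase that most tissues express, had signals of 279, 574 and 1318 with AS605240, against 265, 633 and 1477 with vehicle. It was lower in 3 lines and higher in 4. Its log2 change was −0.015 (SE 0.074, adjusted p = 0.928, limma), with values per line between −0.31 in P12-ICHIKAWA and 0.29 in Molt-4.

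**Figure D2:**
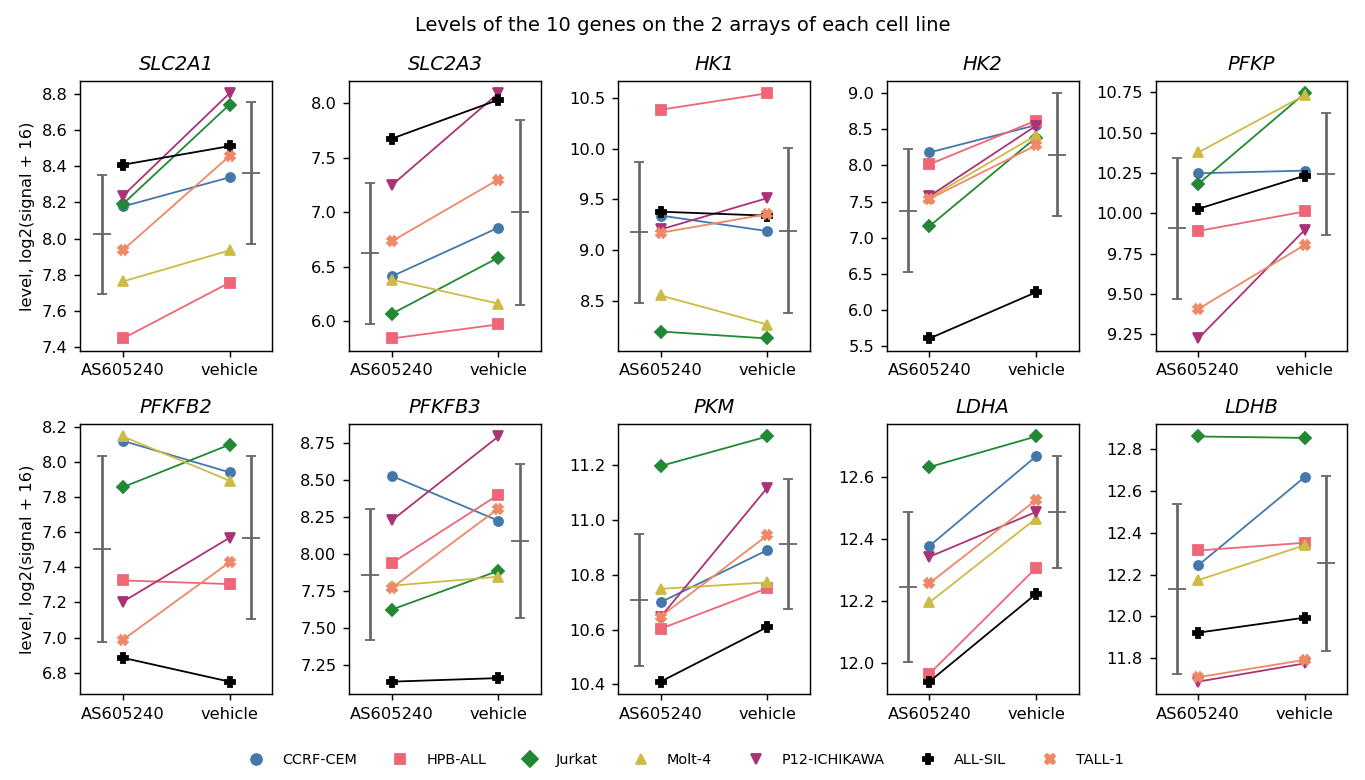
The level of each gene as log2(signal + 16), 1 panel per gene with its own y axis, on the AS605240 and the vehicle array of each of the 7 cell lines (joined symbols), with the mean and SD of each treatment as grey bars. The joined lines run downward towards AS605240 in 7 of 7 lines for SLC2A1, HK2, PFKP, PKM and LDHA, and ALL-SIL lies far below the other lines for HK2.

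Of the phosphofructokinase step, PFKP, the platelet-type subunit of the enzyme, had signals of 582, 1028 and 1315 with AS605240, against 878, 1188 and 1700 with vehicle. It fell by 0.33 on the log2 scale (SE 0.079, adjusted p = 0.00853, limma) and was lower in 7 of 7 lines, by 0.67 in P12-ICHIKAWA and by only 0.017 in CCRF-CEM.

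PFKFB3 and PFKFB2 make and degrade the fructose bisphosphate that activates phosphofructokinase, PFKFB3 being the form with the strongest bias towards synthesis. PFKFB3 had signals of 125, 205 and 353 with AS605240, against 127, 283 and 427 with vehicle. Its log2 change of −0.23 (SE 0.096) did not pass the test (adjusted p = 0.119, limma). CCRF-CEM was the one line above 0, at 0.30, and without CCRF-CEM the change was −0.32 with an adjusted p of 0.0208, among values of 0.000263 to 0.9999 over all alternatives. PFKFB2 had signals of 102, 144 and 267 with AS605240, against 91.5, 174 and 258 with vehicle. Its log2 change was −0.066 (SE 0.087, adjusted p = 0.694, limma), with 3 lines lower and 4 higher.

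At the end of the pathway, PKM, the pyruvate kinase of most proliferating cells, had signals of 1344, 1588 and 2333 with AS605240, against 1546, 1882 and 2516 with vehicle. It was lower in 7 of 7 lines, and its log2 change was −0.21 (SE 0.063, adjusted p = 0.0350, limma). This call was the least stable of the 6. It was lost in 9 of 17 alternatives, with an adjusted p of 0.0631 without CCRF-CEM, 0.0508 without HPB-ALL, 0.106 without P12-ICHIKAWA, 0.0672 without ALL-SIL, 0.0937 without TALL-1 and 0.0817 with P12-ICHIKAWA and TALL-1 as 1 line.

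LDHA, the lactate dehydrogenase subunit that favours lactate formation, had signals of 3915, 4878 and 6325 with AS605240, against 4764, 5721 and 6771 with vehicle. It fell by 0.24 on the log2 scale (SE 0.056, adjusted p = 0.00755, limma) and in 7 of 7 lines, with changes between −0.34 in HPB-ALL and −0.098 in Jurkat. The SD of its change over lines, 0.087, lay at percentile 4.34 of all genes. LDHB, the subunit that favours pyruvate formation, had signals of 3281, 4604 and 7429 with AS605240, against 3488, 5173 and 7394 with vehicle. Its log2 change was −0.12 (SE 0.063, adjusted p = 0.210, limma). CCRF-CEM had a change of −0.42, and the other 6 lines lay between −0.17 and 0.0067. Without CCRF-CEM the change of LDHB was −0.073.

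Whether paralogs changed alike was asked line by line, as the difference of their log2 changes. Array-wide scaling largely cancels in this difference, though less so for dim signals, because 16 was added before log2. HK2 minus HK1 was −0.76 ± 0.33 (SD, n = 7 lines), below 0 in 7 of 7 lines and between −1.29 in Jurkat and −0.44 in HPB-ALL. Its exact two-sided sign-flip p was 0.0156, the smallest that 7 lines allow, and 0.0625 after adjustment over the 4 pairs compared. LDHA minus LDHB was −0.12 ± 0.14 (SD, n = 7 lines, 6 of 7 below 0, exact p = 0.0781, adjusted p = 0.104). PFKFB3 minus PFKFB2 was −0.16 ± 0.20 (SD, n = 7 lines, 6 of 7 below 0, exact p = 0.0781, adjusted p = 0.104). SLC2A1 minus SLC2A3 was 0.037 ± 0.26 (SD, n = 7 lines, 4 of 7 above 0, exact p = 0.719, adjusted p = 0.719), with −0.39 in Molt-4 and 0.29 in CCRF-CEM as its ends. No pair passed the adjusted threshold with 7 lines. A lone pair at the floor of 0.0156 reaches only 0.0625 over 4 pairs, so HK2 minus HK1 could not pass unless other pairs also had a low p. CCRF-CEM was the one line above 0 for both LDHA minus LDHB and PFKFB3 minus PFKFB2. Leaving it out leaves 6 lines of one sign in these pairs and in HK2 minus HK1, so that each exact p is at 0.0312, the floor for 6 lines, and the adjusted p of 0.0417 follows from that choice of lines and is no support. With any other line left out the exact adjusted p was 0.125 for HK2 minus HK1 and between 0.167 and 0.208 for these other 2 pairs. With P12-ICHIKAWA and TALL-1 as 1 line the 3 values were 0.125, 0.188 and 0.208. The 0.125 is the floor for 6 lines adjusted over 4 pairs, so it follows from the number of lines and does not measure stability.

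**Figure D3:**
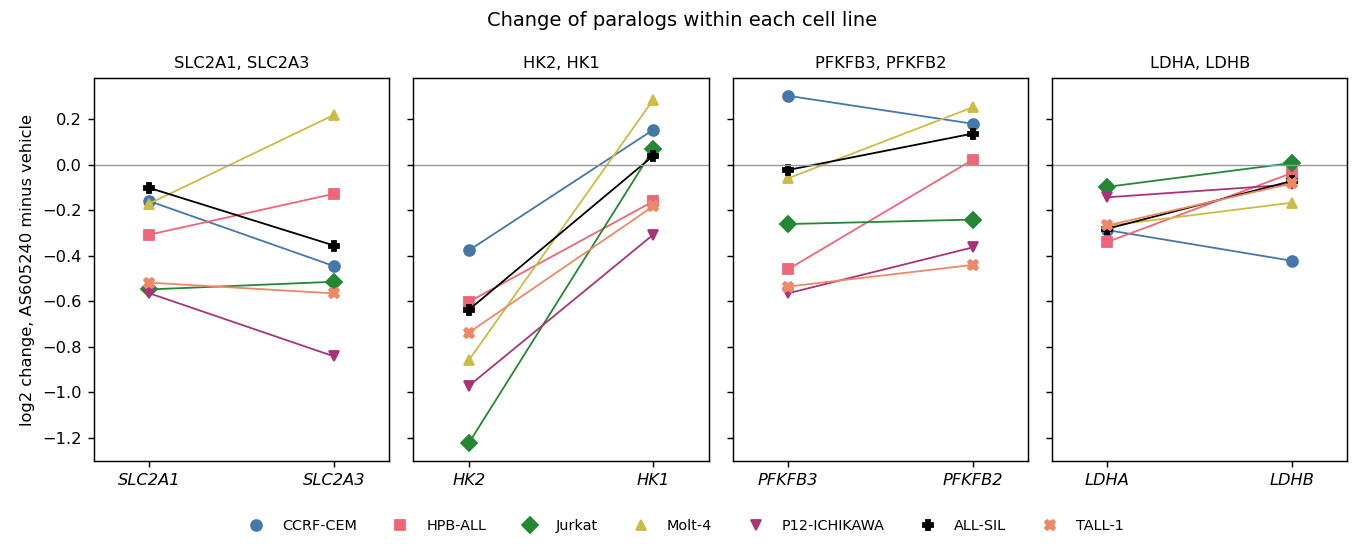
The log2 change, AS605240 minus vehicle (y axis, shared), of the 2 paralogs of each pair (x axis) in each of the 7 cell lines (joined symbols). Every line rises from HK2 to HK1, whereas for SLC2A1 and SLC2A3 the lines cross.

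The lines differed in all 10 genes beyond the spread within lines (limma F-test of the cell line terms, adjusted p between 6.59e-08 for HK1 and 0.00221 for PKM), as did 66.9% of all genes. Levels here are log2 means of the 2 arrays of a line, and neighbours in the order are called apart where the gap exceeds 2 residual SD of that gene. HK1 was highest in HPB-ALL, at 10.46, apart from a group of ALL-SIL, P12-ICHIKAWA, CCRF-CEM and TALL-1 between 9.36 and 9.26, which was in turn apart from Molt-4 and Jurkat at 8.41 and 8.17. The range of HK1 was 4.53-fold over the lines with AS605240 and 5.31-fold with vehicle. HK2 gave another order. CCRF-CEM, HPB-ALL, P12-ICHIKAWA, Molt-4, TALL-1 and Jurkat followed each other from 8.37 to 7.77 without a gap, and ALL-SIL lay 1.85 below at 5.93, which is 11.4 residual SD. The HK2 minus HK1 level thus spanned 2.77 log2 units between lines with AS605240 and 3.35 with vehicle, with ALL-SIL lowest under both. Since probe sets differ in brightness, only the span between lines is read, not the sign of this level.

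SLC2A3 was high in ALL-SIL, where HK2 was lowest. ALL-SIL and P12-ICHIKAWA, at 7.85 and 7.67, were not apart from each other but were apart from TALL-1 at 7.02, and with vehicle P12-ICHIKAWA had the higher signal of the pair, 257 against 246. CCRF-CEM, Jurkat and Molt-4 followed, and HPB-ALL was lowest at 5.91. The range over the lines was 3.56-fold with AS605240 and 4.35-fold with vehicle. SLC2A1 varied less, from 8.52 in P12-ICHIKAWA to 7.60 in HPB-ALL, with the only gap above Molt-4. LDHB was highest in Jurkat at 12.86, apart from CCRF-CEM, HPB-ALL and Molt-4 between 12.46 and 12.26, which were apart from ALL-SIL, TALL-1 and P12-ICHIKAWA between 11.96 and 11.73. LDHA ran without a gap from 12.68 in Jurkat to 12.08 in ALL-SIL, a range of 1.61-fold with AS605240 and 1.42-fold with vehicle, against 2.26-fold and 2.11-fold for LDHB in the same order. PFKP was highest in Molt-4 at 10.56, and TALL-1 and P12-ICHIKAWA, at 9.61 and 9.56, were apart from the rest. PFKFB2 had CCRF-CEM, Molt-4 and Jurkat apart from the other lines, at 8.03 to 7.98, and ALL-SIL lowest at 6.82. ALL-SIL was also lowest for PFKFB3, at 7.15 and apart from Jurkat at 7.76. PKM was apart only in Jurkat, at 11.25 against 10.88 in P12-ICHIKAWA.

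**Figure D4:**
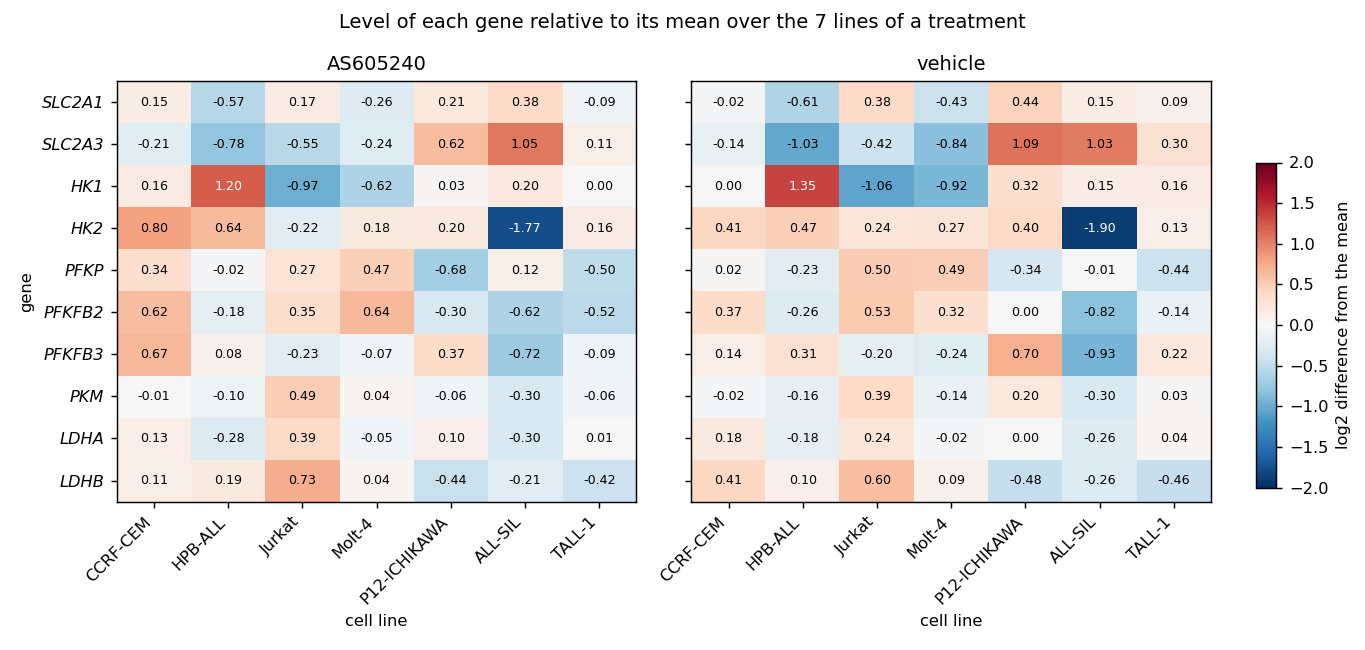
The level of each gene (rows) in each cell line (columns) as the log2 difference from that gene's mean over the 7 lines of a treatment, with AS605240 at the left and vehicle at the right (colour and printed value). ALL-SIL is the lowest line for HK2 and HPB-ALL the highest for HK1 under both treatments.

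The 10 genes had 21 single-gene probe sets, and 3 of the genes had only 1. At an adjusted p under 0.05 over 42892 probe sets, 10 of the 21 fell, 1 rose and 10 were not called, where 6.03% of all probe sets fell and 10.4% rose. Of the 15 with a mean signal over 50, 9 fell and none rose. The shares of all probe sets at such signals were not computed. The 3 probe sets of SLC2A3 fell by similar amounts, with log2 changes of −0.38, −0.41 (202497_x_at) and −0.34 (202498_s_at). The last 2 were dimmer, with mean signals of 52.3 and 38.0, over 50 on 6 and 3 of 14 arrays. For HK2 the brightest probe set fell by 0.77, 239410_at by 0.38 (adjusted p = 0.00415, limma), and 222305_at had a change of −0.22 (adjusted p = 0.0721, limma). The mean signals of these dimmer probe sets were 55.1 and 56.1. The second PKM probe set, 213700_s_at, fell by 0.37 (adjusted p = 0.00977, limma). The second probe sets of SLC2A1 (201249_at) and PFKP (240202_x_at) were dim, with mean signals of 5.8 and 17.1. They were not called, at −0.055 and −0.14 (adjusted p = 0.661 and 0.276, limma). Both LDHB probe sets are of the type that may cross-hybridize with related transcripts (suffix _x_at), as are 202497_x_at of SLC2A3 and 240202_x_at of PFKP. The second LDHB probe set, 201030_x_at, had a change of −0.14 (adjusted p = 0.120, limma).

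PFKFB2 alone had a probe set that rose. Its probe set 226733_at rose by 0.27 on the log2 scale (adjusted p = 0.0105, limma), while the brightest one did not pass the test. The signal of 226733_at was dim, 23.3 on average and over 50 on 1 of 14 arrays. Jurkat had 77.0 in AS605240-treated and 49.3 in vehicle-treated cells, Molt-4 had 33.6 and 22.4, and TALL-1 had 23.1 and 14.8 in the same order. It was higher in 6 of 7 lines, and in ALL-SIL it was near 0 on both arrays. The PFKFB2 probe sets 209992_at and 238450_at were dimmer still and not called, at 0.027 and −0.18.

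**Figure D5:**
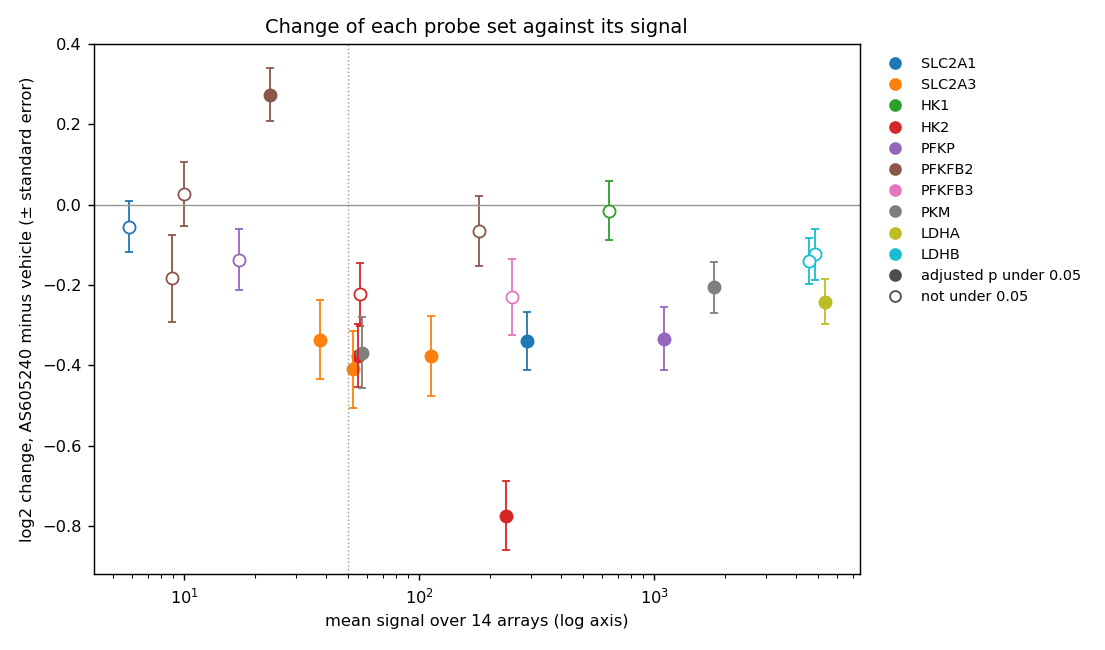
The log2 change, AS605240 minus vehicle, with its standard error (y axis) against the mean signal over 14 arrays (log x axis) for the 21 single-gene probe sets of the 10 genes (colours), filled where the adjusted p was under 0.05. To the right of the dotted line at a signal of 50 every filled point lies below 0, and the 1 filled point above 0 is the dim PFKFB2 probe set.

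No other glycolysis gene that passed the test changed as far as HK2. Of 31 other glycolysis genes, 28 had a single-gene probe set, of which 4 fell and 1 rose (7.03% and 11.8% over all genes), and their median log2 change was −0.085, against 0.013 over all genes. These shares, here and below, include dim genes. Genes with a signal over 50 on at least 7 arrays were called more often, as given above. The triose phosphate isomerase TPI1 fell by 0.29, the phosphoglycerate mutase PGAM1 and the aldolase ALDOA by 0.25 each, and the enolase ENO1 by 0.18 (adjusted p between 0.00640 and 0.0357, limma). ADPGK, a glucokinase that uses ADP in place of ATP, rose by 0.17 (adjusted p = 0.0473, limma). This call was lost with array medians, with quantile normalization and with an offset of 4. It was also lost when any line other than ALL-SIL was left out. With P12-ICHIKAWA and TALL-1 as 1 line, ENO1 (adjusted p = 0.0761) and ADPGK (adjusted p = 0.0913) lost their calls. GAPDH, named after its value was seen, had a change of −0.0068 (adjusted p = 0.954, limma).

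Downstream of PKM, 23 of 27 genes of pyruvate and lactate handling were measured, of which 7 fell and 3 rose, where 7.03% and 11.8% of all genes did, so the share that rose was near that of all genes. MPC1, a subunit of the mitochondrial pyruvate carrier, fell by 0.46 (adjusted p = 0.00143, limma). The pyruvate dehydrogenase subunits DLAT and PDHA1 fell by 0.36 and 0.21, the monocarboxylate transporter SLC16A7 by 0.33 and the pyruvate dehydrogenase kinase PDK1 by 0.39. The testis-type lactate dehydrogenase LDHC fell by 0.50 at a dim mean signal of 37.1. The pyruvate dehydrogenase kinases PDK2 and PDK3 went the opposite way, with changes of 0.55 (higher in 5 of 7 lines) and 0.23. PDK2 had a mean signal of 62.6 and was over 50 on 8 of 14 arrays, and PDK4 was dim and not called. PDPR, a regulatory subunit of the phosphatase that reactivates pyruvate dehydrogenase, rose by 0.41 (adjusted p = 0.000375, limma). With P12-ICHIKAWA and TALL-1 as 1 line, PDHA1 (adjusted p = 0.0544) and PDHX, another subunit of the complex (adjusted p = 0.0666), lost their calls. The median over these genes was −0.086.

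Of 11 pentose phosphate genes 10 were measured, of which 3 fell and 1 rose, with a median of 0.0058. The 1 gene that rose is near the 11.8% of all genes that rose, and 7.03% of all genes fell. RPIA, the isomerase that makes ribose phosphate, fell by 0.34 in 7 of 7 lines (adjusted p = 0.00118, limma), the phosphoribosyl pyrophosphate synthetase PRPS1 by 0.23 and the epimerase RPE by 0.21, a call lost with P12-ICHIKAWA and TALL-1 as 1 line (adjusted p = 0.103). H6PD, the glucose 6-phosphate dehydrogenase of the endoplasmic reticulum, rose by 0.29 (adjusted p = 0.0105, limma). Of 16 regulators 2 fell and 2 rose, with a median of −0.0076, and the 2 that rose are near the share of all genes, 11.8%. TIGAR, a phosphatase that lowers fructose bisphosphate, fell by 0.78 (adjusted p = 0.000418, limma), and MLX, the partner of the glucose-sensing factors, by 0.33. MLXIP, one of these factors, rose by 0.34 and ARNT, the partner of the hypoxia-inducible factors, by 0.31. MYC mRNA, named after its value was seen, had a change of −0.036 (adjusted p = 0.753, limma).

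The gene whose 14 log2 values were most like those of each member was sought among 9176 genes with a signal over 50 on at least 7 arrays, as a description in which the difference between lines weighs most. The highest Pearson r was 0.963 for PFKP with CHCHD1, 0.961 for LDHB with TMEM126A and 0.956 for HK2 with FAM3C. HK1 was most like MEX3C (r = 0.944), SLC2A1 most like CMPK1 (r = 0.938), SLC2A3 most like GNA15 (r = 0.915) and LDHA most like RPP40 (r = 0.937). PFKFB2 was most like ARL15 (r = 0.946), PKM most like TIMM10 (r = 0.939), and PFKFB3 had the lowest match, 0.870 with FAR1. RPP40, a subunit of ribonuclease P, itself fell by 0.75 (adjusted p = 1.79e-05, limma), a larger change than that of LDHA, and CMPK1, a nucleotide kinase, had a change of −0.11 that did not pass the test (adjusted p = 0.187, limma).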

How the data were processed

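The authors deposited 1 linear signal intensity per probe set for 14 HG-U133 Plus 2.0 arrays; the methods give iterPLIER with 16 added and log2, and the submitters' notes name PLIER and Affymetrix Expression Console 1.3.1.187. What normalization preceded PLIER is not stated in the sources used here. Log2 with an offset of 16 was taken here, so fold changes are on the log2(value + 16) scale, which understates those of dim genes. Of 54675 probe sets, 62 were controls, 41091 had 1 gene, 1801 several and 11721 none named here. The brightest single-gene probe set stood for each of 19775 genes. AS605240 was compared with vehicle with limma 3.58.1 in R 4.3.3, with the cell line, which the labels name, as the block that pairs the 2 arrays, and Benjamini-Hochberg adjustment over all genes. Paralogs were compared with an exact sign-flip test over lines. The spread is that between lines, array noise included, and the precision is limited by the number of arrays. The members, lists and tests were chosen with earlier results of these data known. The text names all members, from each list at most 6 called genes per direction by smallest p, and the most similar gene of each member. The tests were tested on simulated data. The alternatives were other offsets, scalings, probe set rules, a dim filter, no block and left-out lines.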

Additional observations from a re-analysis of the deposited data

Results flagged for a closer look

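Of 30 groups of 7 values (the level with AS605240, the level with vehicle and the change, for each of the 10 genes), 4 held a value far from the other 6 by Dixon's ratio. Chance gives about 1 in 20 for independent groups. The groups of a gene share lines and arrays, so the count cannot be set against that rate. The HK2 level of ALL-SIL was 5.61 with AS605240, where the other lines lay between 7.16 and 8.18, and 6.25 with vehicle, where the others lay between 8.28 and 8.62. The PKM level of Jurkat with AS605240 was 11.20, against 10.41 to 10.75 in the others. The LDHB change of CCRF-CEM was −0.42, against −0.17 to 0.0067 in the others.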

How the results depend on the processing

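Of 441 values computed under alternatives, 367 kept their direction and side of the threshold or moved little. The largest effects came from dropping the replicate block, which left 0 of the 10 genes and 0 genes of each list called, with 6 of all genes lower and 19 higher (adjusted p of HK2 0.987), and from centring on the spike-ins, which put 10 of the 10 genes lower, 8645 of all genes lower and 509 higher, 20 lower and 0 higher of the other glycolysis genes, 15 lower and 1 higher of the pyruvate and lactate genes, 0 higher of the pentose phosphate genes, and 8 lower and 0 higher of the regulators, with a median of all genes of −0.21. An offset of 4 left 2 other glycolysis genes lower and 0 higher, and 1 pentose phosphate gene lower. The 1 other glycolysis gene called higher went to 0 with array medians, quantile normalization, the mean of all probe sets, all probe sets tested together, and P12-ICHIKAWA and TALL-1 as 1 line. Leaving out each line in turn gave 4 to 6 of the 10 genes lower, 1054 to 1450 genes lower and 1800 to 2196 higher, 2 to 5 other glycolysis genes lower and 0 to 1 higher, 5 to 7 pyruvate and lactate genes lower and 2 to 3 higher, and 1 to 2 pentose phosphate genes lower. Without TALL-1, 4 of the 10 genes were lower, since SLC2A3 and PKM lost their calls. Over left-out lines the paralog differences ranged from −0.81 to −0.67 for HK2 minus HK1 and −0.21 to −0.11 for PFKFB3 minus PFKFB2. They ranged from −0.16 to −0.087 for LDHA minus LDHB and −0.0042 to 0.11 for SLC2A1 minus SLC2A3. Other settings went beyond these ranges. HK2 minus HK1 shrank to −0.44 with the mean of all probe sets and to −0.61 with an offset of 64. With the mean of all probe sets PFKFB3 minus PFKFB2 was −0.24 and SLC2A1 minus SLC2A3 was 0.18. SLC2A1 minus SLC2A3 also turned sign with an offset of 64 (−0.014) and without P12-ICHIKAWA (−0.0028). HK1, not called, ranged from −0.065 to 0.034 over left-out lines and turned to 0.0092 without HPB-ALL, 0.034 without P12-ICHIKAWA, 0.013 without TALL-1 and 0.023 with these last 2 lines as 1, and PFKFB2 to 0.013 with the mean of its probe sets. SLC2A3 lost its call with an offset of 4 (adjusted p = 0.0599). The cause of these shifts was not tested.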
